A study of Mus musculus with 30 samples.

Results

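Whole-genome expression in the eyes of adult mice was compared with expression in 14 other organs and tissues, using 2 eyes arrays of 30 arrays in all. The eyes arrays were picked by their sample labels, which name 2 arrays as eyes and 28 arrays as bladder, bone, brain_cortex, cerebellum, fat, heart, kidney, large_intestine, liver, lung, muscle, skin, small_intestine and stomach, each with 2 arrays. The labels describe every sample as tissue of untreated male C57BL/6 mice aged 28 weeks. The published methods state a different age. The 2 eyes samples were described as taken from different animals. Each array carried tissue RNA in the Cy3 channel and a common reference in the Cy5 channel, which combined RNA of several mouse lines, among them myoblast, liver, kidney, lung and skin lines, with RNA of 129 ES cells (embryonic stem cells). A log2 ratio below is log2(Cy3/Cy5), tissue over reference, and a log2 difference is the log2 ratio of eyes minus the mean of the log2 ratios of the other 14 tissues. A log2 ratio near 0 means either that tissue and reference were alike or that both channels were dim.

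A whole eye is a composite organ. The retina holds photoreceptors, which turn light into an electrical signal through a cascade of opsin, transducin and phosphodiesterase, and layers of inner neurons that pass the signal on. The lens is a mass of fibre cells packed with crystallins, the soluble proteins that give it its refractive power. The cornea and conjunctiva are covered by stratified epithelium, related to that of skin and the forestomach, and the muscles that move the globe are striated. Because the whole organ was homogenised, a larger number of cells of one type and more RNA per cell cannot be told apart in these values.

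The 2 eyes arrays correlated with each other at r = 0.98 across the probes tested. The nearest array of another tissue reached r = 0.682 with eyes replicate 1. Among the 15 tissues the replicate correlation ran from 0.671 for fat, 0.798 for large_intestine and 0.849 for bone up to 0.991 for heart. The series description gives a single replication for bone and fat. The 2 eyes arrays lay on the same slide, together with lung replicate 2, and were scanned on the same day as the arrays of 7 other tissues. On the eyes arrays 75.64% and 75.73% of all probes were well above background in Cy3, against 53.89% to 76.82% over the 30 arrays.

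Of 21019 probes tested, 1153 (5.49%) were called higher in eyes than in the mean of the other 14 tissues, at a log2 difference of at least 2 and an adjusted p under 0.05 in limma. A further 179 probes (0.852%) were called lower by the same measure. At any size of difference, 5062 probes (24.1%) passed as higher and 4627 (22%) as lower. The median log2 difference over all probes tested was -0.06. The arrays scanned on the day of the eyes came from bladder, brain_cortex, cerebellum, heart, kidney, liver and lung, with no muscle, bone, skin, stomach, intestine or fat among them. Against those 7 tissues 1037 probes were called higher, and 907 of them were among the 1153. A value within that day thus differs from the comparison with all 14 tissues in its tissues as well as in the day. A symbol was known for 162 of the probes called higher and 24 of the probes called lower, so most probes are counted here without a name.

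The probes called higher were sorted by the tissues that came close to the eyes. A tissue was said to share a probe when its mean log2 ratio lay above the eyes mean minus 2. No tissue shared 166 of the 1153 probes, which form the class eyes alone (14.4%). Brain_cortex or cerebellum, and no other tissue, shared 245 probes (21.2%). Muscle, with or without heart, bone and skin, shared 23 probes (1.99%), and skin, stomach or bladder shared 59 (5.12%). The other 660 probes were shared by mixed sets of tissues. The classes use the values that made the calls and are a description without a test. In the class eyes alone 39 of 165 probes (23.6%) passed the filter on dim probes through the eyes alone, against 2.03% of all probes tested, and had to differ. The median log2 difference was 4.41 in the class eyes alone, 3.39 in the brain class, 3.53 in the epithelium class, 2.86 in the muscle class and 2.51 among the rest.

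**Figure D1:**
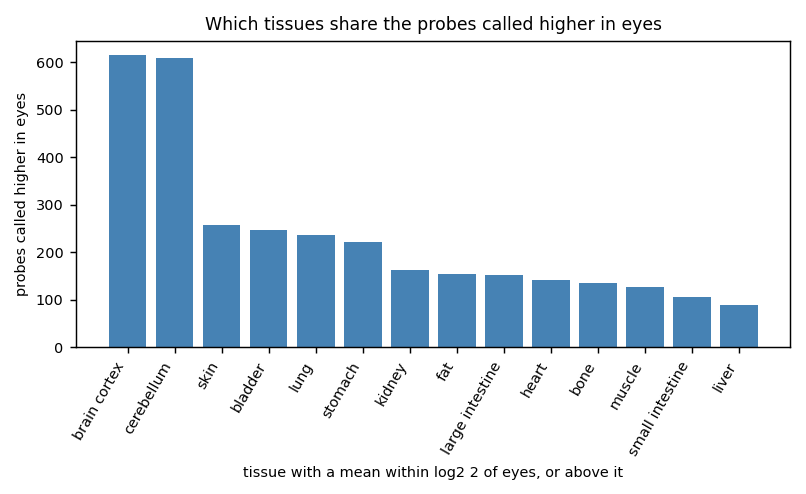
Number of the 1153 probes called higher in eyes (vertical axis, linear from 0) that each of the other 14 tissues shared, in falling order. Brain_cortex (615 probes) and cerebellum (609) stand above skin (258), bladder (247) and the rest, and liver shared 89.

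The reference channel was not constant for the probes brightest in eyes, although every array carried the same reference. Lgsn, a lens gene, had a log2 Cy5 level of 15.32 and 14.7 on the eyes arrays and between 6.24 and 7.86 on the other 28. For Pdc, a photoreceptor gene, it was 12.16 and 12.42 against 6.54 to 7.01. A higher Cy5 level lowers the log2 ratio, and on Cy3 alone the difference of eyes from the other 14 tissues was 11.2 for Lgsn and 11.08 for Pdc, where the log2 ratios below give 4.66 and 7.09. Both eyes arrays lay above all others in Cy5 for 117 of 165 probes of the class eyes alone (70.9%), for 8.61% of the brain class, 27.1% of the epithelium class and 1.47% of all probes tested. Of the 24 named genes with both eyes arrays above all others in Cy5, 19 had a larger difference on Cy3 alone than in the log2 ratio, and Crygf, EG433332, Tafa3, Opn4 and Crb1 a smaller one. The 2 scales thus order the genes differently. On Cy3 alone 948 probes were called higher, 190 of them in the class eyes alone. What raised Cy5 was not tested, and this comparison of the channels was added after the data were seen.

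Brain was the tissue closest to the eyes, with 53.3% of the called probes shared by brain_cortex and 52.8% by cerebellum. Skin followed with 22.4%, bladder with 21.4%, lung with 20.5% and stomach with 19.3%. Across all probes tested the mean log2 ratios of eyes correlated with those of cerebellum at r = 0.71 and with those of brain_cortex at r = 0.7, and least with those of liver (r = 0.31). These correlations run across probes, which are not independent replicates, and all tissues share the same reference.

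The class eyes alone held 5 photoreceptor genes with a symbol. Of the 59 genes on the photoreceptor list, 7 had a symbol among the probes tested, and 6 of the 7 were called higher in eyes, beside 5.49% of all probes. Of the 7, Rp1, Crb1 and Cnga3 passed the filter on dim probes through the eyes alone, so that those among them that were called had to differ, and the count is a description. The median log2 difference of the 7 was 5, against -0.06 over all probes. On Cy3 alone 5 were called, without Crb1. Pdc encodes phosducin, which binds the beta and gamma subunits of transducin. Its log2 ratio was 6.94 on both eyes arrays, while the other 28 arrays ran from -0.52 (lung replicate 2) through a median of -0.19 to 0.57 (stomach replicate 1). The groups did not overlap, and the log2 difference was 7.09 (SE 0.12, adjusted p = 9.58e-19 in limma). Pdc was not well above background on either array of 12 of the other tissues. No fold is given against them, because the log2 ratio and Cy3 alone differ so widely for this gene.

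Rp1, a protein of the axoneme that shapes the photoreceptor outer segment, read 6.25 and 6.4 on the eyes arrays, with a lowest, median and highest value of -0.17, 0 and 0.32 on the others. It was thus at the level of the reference or of dim spots everywhere else, and 13 tissues were not well above background for it. Sag, the arrestin that shuts off activated rhodopsin, read 4.86 and 4.98 in eyes. Elsewhere Sag ran from -0.89 to 1.33, the highest value being on brain_cortex replicate 2. Mpp4, a scaffold protein of photoreceptor synapses, read 5.23 and 5.67 in eyes against -2.74 to 1.08 on the other arrays. The reference held more Mpp4 than most tissues did, the median of the other 28 arrays being -1.89.

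Crx, the homeodomain factor that drives photoreceptor genes, read 5.11 and 5.09 in eyes. The next tissue was liver, with 2.01 and 2.35, whereas the median of the 28 other arrays was 0.16. Crb1, a polarity protein of the outer limiting membrane, lay just inside the threshold. Its eyes values were 1.78 and 2.31 against a highest value of 0.33 elsewhere, and its log2 difference was 2.01 (SE 0.12), falling to 1.75 without eyes replicate 2 and to 1.61 on Cy3 alone. Crb1 entered no class of a single kind, because with a mean of 2.04 in eyes a tissue near 0 counts as sharing it. Cnga3, a channel subunit of cones, was the member that missed the threshold. Its eyes values of 0.28 and 0.39 were overlapped by heart replicate 1 (0.53), and its log2 difference was 0.43.

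**Figure D2:**
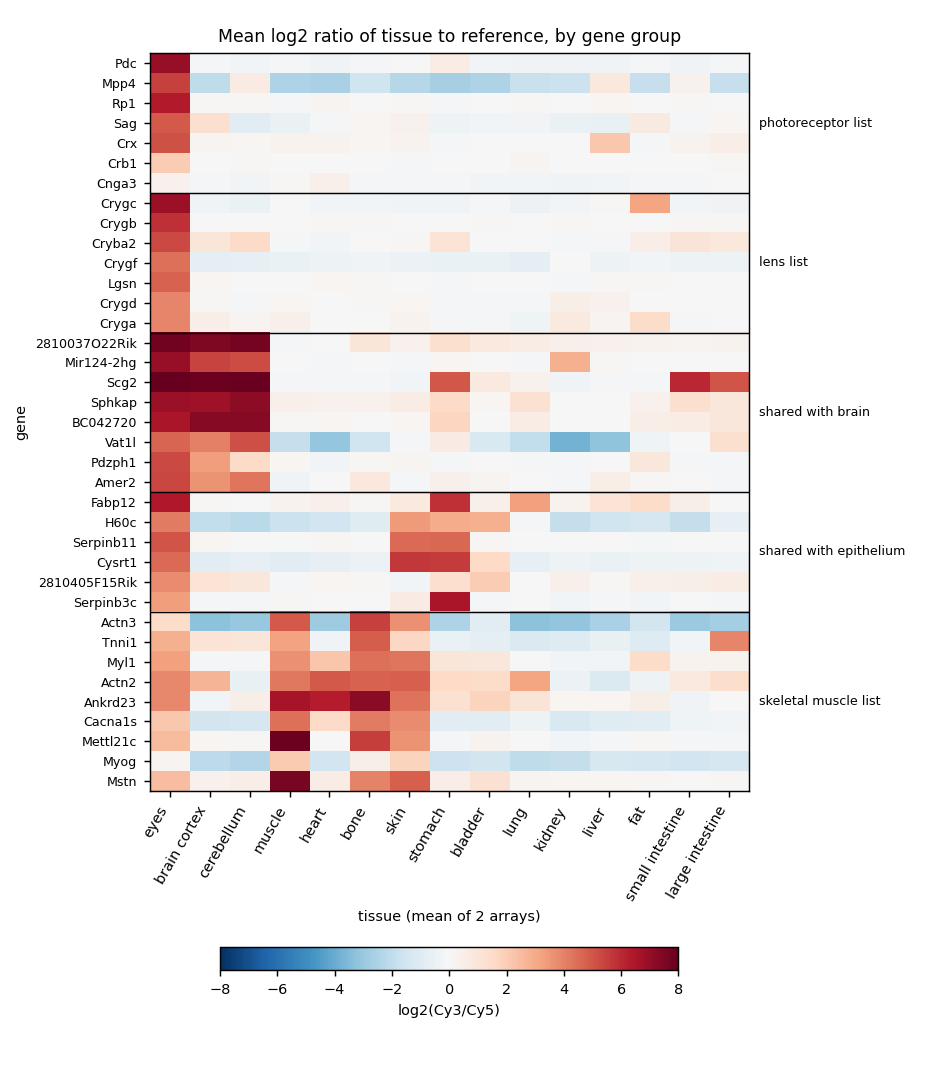
Mean log2 ratio of tissue to reference (colour, blue below 0 and red above) for 37 genes in rows and the 15 tissues in columns, each the mean of 2 arrays. The photoreceptor and lens rows are red mainly in the eyes column, the brain rows also in brain_cortex and cerebellum, the epithelium rows in skin, stomach or bladder, and the muscle rows in muscle, bone and skin.

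Crx binds the core TAATCC, so the promoters of the named eyes-alone genes were searched for it. RefSeq promoter windows, from 250 bases before to 50 after the start in GRCm38.p6 (300 bases), were found for 16 of the 20 named genes of the class eyes alone, 17 windows in all. TAATCC, or GGATTA on the other strand, was in 3 of the 17 windows (17.6%) and in 7.06% of 32851 promoters. The 3 windows belong to Crx, Sag and Mpp4 and are printed 5′ to 3′ along the gene, with the core in capitals. The window of Pdc did not hold these letters. Crx itself holds the core at 2 places, with its first base at -94 and -21 relative to the start. Sag holds it at -87, and Mpp4 at -23 of the second of its starts. A match is a run of letters and not evidence of binding.
Sag, chr1:87803430-87803729, + strand: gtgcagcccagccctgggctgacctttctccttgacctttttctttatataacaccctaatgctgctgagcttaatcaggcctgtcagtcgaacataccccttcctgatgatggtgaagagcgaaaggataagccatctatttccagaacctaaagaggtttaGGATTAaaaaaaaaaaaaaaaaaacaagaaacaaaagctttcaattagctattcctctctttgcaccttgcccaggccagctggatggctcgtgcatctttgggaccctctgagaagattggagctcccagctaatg
Crx, chr7:15879906-15880205, - strand: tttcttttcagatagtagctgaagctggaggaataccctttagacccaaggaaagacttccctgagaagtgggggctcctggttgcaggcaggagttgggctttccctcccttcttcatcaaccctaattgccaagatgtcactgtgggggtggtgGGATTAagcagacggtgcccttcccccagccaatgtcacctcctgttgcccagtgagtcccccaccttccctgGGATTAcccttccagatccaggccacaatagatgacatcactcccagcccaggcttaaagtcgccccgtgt
Mpp4, chr1:59161587-59161886, - strand: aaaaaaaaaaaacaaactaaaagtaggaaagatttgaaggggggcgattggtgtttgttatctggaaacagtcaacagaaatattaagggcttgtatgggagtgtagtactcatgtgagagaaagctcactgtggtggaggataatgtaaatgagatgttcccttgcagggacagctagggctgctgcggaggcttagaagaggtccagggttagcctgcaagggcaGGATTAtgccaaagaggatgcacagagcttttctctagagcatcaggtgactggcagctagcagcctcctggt
The core TGCTGA of the Nrl and Maf element, or TCAGCA, was in 8 of the 17 windows (47.1%) and in 19.5% of all promoters. The 8 genes with it were Cryba2, Cryga, Crygc, Lgsn, Mgarp, Mpp4, Sag and Upk3bl. TATAAA or TTTATA was in 4 of the 17 windows (23.5%) and in 13.6% of all promoters. These shares were not tested.

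Of the 32 genes on the lens list 8 had a symbol, and Cryge did not pass the filter. The other 7 were called higher in eyes, beside 5.49% of all probes, each in the class eyes alone. Their median log2 difference was 4.83, against -0.06 over all probes. Crygb, Crygc, Crygf and Lgsn passed the filter through the eyes alone and so had to differ, and the count is a description. With a stricter filter 3 lens and 3 photoreceptor genes were left as called. Crygc, one of the gamma-crystallins of the fibre cells, read 6.95 and 6.77 on the eyes arrays. On 27 of the other arrays it lay between -0.56 and 0.14, but fat replicate 1 read 6.36 where fat replicate 2 read -0.06. Cryga showed the same single array: eyes read 3.97 and 3.85, fat replicate 1 read 2.98 and fat replicate 2 read -0.03. Without fat replicate 1 the log2 difference of Crygc moved from 6.85 to 7.08 and that of Cryga from 3.68 to 3.79. The place of both genes in the class eyes alone rests on the fat mean, because fat replicate 1 by itself lay within 2 of the eyes.

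Of the other crystallins, 3 were near 0 on that array. Crygb read 5.9 and 5.78 in eyes and -0.12 on fat replicate 1, Crygd read 3.98 and 3.84 against -0.08, and Crygf read 4.59 and 4.17 against -0.38. Cryba2, a beta-crystallin, read 5.24 and 5.25 in eyes, 1.03 on fat replicate 1, -0.03 on fat replicate 2 and 1.65 on cerebellum replicate 1, the highest of the other arrays. Lgsn, a lens protein related to glutamine synthetase, read 4.66 and 4.72 in eyes and at most 0.29 elsewhere. Crygb was not well above background in any of the 14 other tissues, Cryba2 in 7 of them and Lgsn in 12. All 7 genes also had a higher mean Cy5 level in eyes than in the other 14 tissues, by 0.99 for Crygf up to 8.4 for Lgsn, and their differences on Cy3 alone ran from 4.79 for Crygf to 11.2 for Lgsn.

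The gamma-crystallins are close paralogs, so the array's own 60-base probes bear on how far these readings are separate. The probes of Cryga, Crygc and Crygd, each with an open forward reading frame, are printed here with gene positions in GRCm38.p6. The probe of Crygf also has such a frame but is not printed. Capitals mark each copy of the longest run shared with another of the 5 gamma-crystallin probes.
Cryga (gene at chr1:65100389-65103363): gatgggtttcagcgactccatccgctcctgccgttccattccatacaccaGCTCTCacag
Crygc (gene at chr1:65071525-65073532): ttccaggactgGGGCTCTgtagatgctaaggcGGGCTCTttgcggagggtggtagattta
Crygd (gene at chr1:65061838-65063440): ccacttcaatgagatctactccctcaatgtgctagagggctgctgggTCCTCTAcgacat
The longest run that any 2 of the 5 probes shared was 7 bases. In the best alignment without gaps, 9 of the 10 pairs matched at 31.6% to 43.4% of the overlapping bases. The exception was Crygc with Crygf, which matched at 20 of 28 overlapping bases (71.4%). Whether each probe also binds transcripts of the other paralogs was not tested.

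Cryga, Crygb, Crygc and Crygd lie in one cluster on chromosome 1, and Crygf lies on the same chromosome. Their promoters are shown from 80 bases before to 10 after the start (RefSeq, GRCm38.p6), with TATATA in capitals. This run of letters, its own reverse complement, was chosen after the windows were read.
Cryga, chr1:65103354-65103443, - strand: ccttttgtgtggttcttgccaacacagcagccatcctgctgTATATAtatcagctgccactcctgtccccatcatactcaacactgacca
Crygb, chr1:65082281-65082370, - strand: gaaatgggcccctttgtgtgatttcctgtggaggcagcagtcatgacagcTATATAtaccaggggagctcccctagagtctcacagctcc
Crygc, chr1:65073523-65073612, - strand: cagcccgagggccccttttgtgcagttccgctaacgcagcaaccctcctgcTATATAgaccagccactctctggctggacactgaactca
Crygd, chr1:65063431-65063520, - strand: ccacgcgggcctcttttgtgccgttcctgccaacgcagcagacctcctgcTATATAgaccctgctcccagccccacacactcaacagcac
Crygf, chr1:65926442-65926531, + strand: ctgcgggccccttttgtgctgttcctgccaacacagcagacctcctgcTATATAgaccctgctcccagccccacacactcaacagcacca
All 5 windows hold TATATA, with its first base between -39 and -29 relative to the start. It is in 5.67% of all 300-base promoters, and in 0.721% of them it starts in that same stretch.

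**Figure D3:**
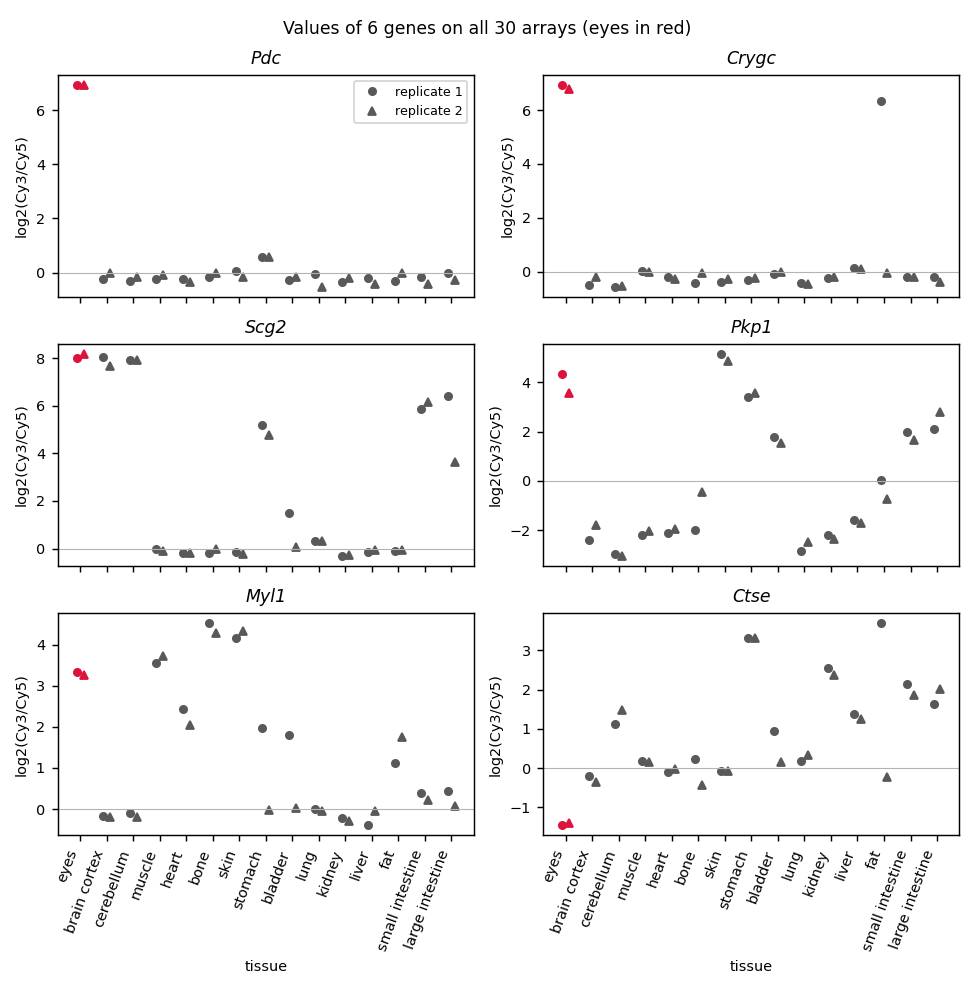
Log2 ratio (vertical axis, a separate scale in each panel) of 6 genes on all 30 arrays, with replicate 1 as circles, replicate 2 as triangles and eyes in red. Pdc is high on the 2 eyes arrays alone, Crygc also on fat replicate 1 (6.36), Scg2 also in brain, Pkp1 in skin and stomach, Myl1 in bone, skin and muscle, and Ctse is lowest in eyes (-1.45 and -1.4).

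Outside both lists, Mgarp, a protein of mitochondria known from the corneal endothelium, read 7.14 and 6.9 in eyes and between -4.16 and -1.6 on the other 28 arrays, a log2 difference of 9.98 (SE 0.27, adjusted p = 8.05e-16 in limma). No probe had a larger difference in the log2 ratio, but on Cy3 alone Mgarp, at 9.86, came after Lgsn, Pdc, Cryba2 and Sag (10.06). The negative values mean that the reference held more of it than any of the other tissues. Ppp1r42, a regulatory subunit of a protein phosphatase, read 6.21 and 6.53 in eyes. Its nearest tissue was lung, at 3.64 and 4.35, and its log2 difference was 5.36 (SE 0.29).

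The remaining 6 named genes of the class were chosen for mention after their values were seen. Prss56, a serine protease linked to eye size, read 3.71 and 3.87 in eyes with a log2 difference of 4.55. Upk3bl, related to the uroplakins of the bladder lining, read 4.08 and 4 in eyes and 1.39 on average in bladder, the next tissue. BC055402, Gm15850, EG433332 and 1810009A15Rik had log2 differences of 3.88, 3.3, 3.08 and 3.04. In all, 15 of the 20 named genes of the class lie on chromosome 1, as do 18.5% of all named probes tested. The 15 include Cryga, Crygb, Crygc and Crygd, which lie in one cluster. Only 24% of the probes tested had a symbol, taken from the study's lists, so the named genes need not stand for the class. This difference was not tested.

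The eyes shared a large neural signal with brain. In this class 2810037O22Rik, a RIKEN transcript, read 7.61 and 7.85 in eyes and had a mean of 7.68 in cerebellum. Its log2 difference was 6.26, or 5.9 on Cy3 alone, where Mir124-2hg stood at 7.44. Scg2, secretogranin II of dense-core vesicles, read 7.99 and 8.18 in eyes, with means of 7.86 in brain_cortex and 7.93 in cerebellum. The eyes, brain_cortex and cerebellum thus had nearly the same log2 ratio. The Cy5 level of Scg2 also varied, at 7.83 and 8.04 in eyes against a median of 6.58 and a highest value of 8.11 elsewhere. Scg2 was also present in the gut, with means of 6.02 in small_intestine, 5.02 in large_intestine and 4.97 in stomach, and small_intestine fell just short of sharing it. Mir124-2hg, a host transcript of the neuronal microRNA miR-124, read 6.94 and 7.04 in eyes, above the 5.4 of brain_cortex and the 5.24 of cerebellum. A second host transcript, Mir124a-1hg, named after its values were seen, read 3.9 and 4.03 in eyes and 3.67 on average in cerebellum. These probes measure the host transcripts and not the microRNA.

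Of the other named genes of this class, Sphkap, an anchoring protein for a protein kinase, had a log2 difference of 5.43 and BC042720 one of 5.16. Vat1l followed with 5.08. Pdzph1 (4.92) and Amer2 (4.67), a relative of the Wnt regulator Amer1, were higher on both eyes arrays than on any other array. Of the 8 neuron list genes with a symbol, 3 were called higher in eyes (Scg2, Adgrb3 at 3.76 and Asic2 at 2.71), beside 5.49% of all probes. When the 2 brain tissues were left out of the comparison, 1351 probes (6.43%) were called higher and 4 of the 8 neuron genes passed. Genes of this list were high in brain, so leaving it out raised their differences. Elavl3 and Map2, neuronal genes of the list, had log2 differences of 1.45 and 0.91 and were highest in cerebellum and brain_cortex.

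The inner retina list had 5 members with a symbol, of which 2 were called higher, beside 5.49% of all probes. Tfap2b, a factor of amacrine and horizontal cells, read 5.54 and 5.55 in eyes, but skin averaged 5.73, kidney 5.38 and cerebellum 5.12. It also read 5.1 on fat replicate 1 and -0.05 on fat replicate 2, and its log2 difference was 4.07 (SE 0.66). Rdh10, a retinol dehydrogenase, read 1.83 and 2.33 and its log2 difference of 2.25 fell to 1.99 without eyes replicate 2. Lhx9, a LIM homeodomain factor, Gabrr2, a GABA receptor subunit, and Glul, the glutamine synthetase of glia, had log2 differences of 1.68, 0.75 and 0.11. Opn4, the photopigment of light-sensitive ganglion cells, was on no list and was named after its values were seen. It read 2.94 and 3.06 in eyes and 2.93 and 2.8 in heart, while no other tissue averaged above 0.18.

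Some surface epithelium genes were higher in eyes than in the mean of the other tissues. Of 9 epithelium list genes with a symbol, 3 were called higher in eyes, beside 5.49% of all probes, and none lower, beside 0.852%. Their median log2 difference was -0.04, and at any size 4 passed as higher and 2 as lower, beside 24.1% and 22% of all probes. Pkp1, a plakophilin of desmosomes, read 4.32 and 3.57 in eyes, while brain_cortex averaged -2.1. Its means were 5 in skin, 3.5 in stomach and 2.43 in large_intestine. Serpinb5, the serpin known as maspin, read 3.77 and 3.56 in eyes and averaged 4.28 in skin and 2.43 in large_intestine. Fam25c read 2.15 and 1.64 in eyes, well below the 5.44 of skin and below the 3.35 of liver, and its log2 difference was 2.86. These 3 genes were thus shared by mixed sets of tissues and lay outside the epithelium class. Genes of cornified epidermis on the same list did not follow them: Krt10 had a log2 difference of -0.04 (adjusted p = 0.822), Serpinb2 one of -0.8 (adjusted p = 0.152) and Sprr1a one of -1.21 (adjusted p = 0.00211), all in limma. Within the scan day of the eyes, which leaves out skin and stomach, where both are high, Krt10 was at 0.22 (adjusted p = 0.026) and Serpinb2 at 0.44 (adjusted p = 0.00327). On Cy3 alone Krt10 was at -0.51 (adjusted p = 0.0141), and against lung replicate 2 of the same slide Sprr1a was at 0.47. When skin, stomach and bladder were left out of the comparison, 1182 probes (5.62%) were called higher, the same 3 members among them.

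The class shared with skin, stomach or bladder held 6 genes with a symbol. Fabp12, a fatty acid-binding protein, read 6.35 and 6.49 in eyes, and stomach was the one tissue near it, with a mean of 5.84. Serpinb11, another serpin, read 5.1 and 4.9 in eyes, with means of 4.51 in skin and 4.62 in stomach and none above 0.13 elsewhere. H60c, a ligand of the NKG2D receptor of immune cells, read 4.55 and 3.82, with skin at 3.4, stomach at 2.96 and bladder at 2.86. Cysrt1 (4.96 and 4.15) was lower than in skin, at 5.65, and stomach, at 5.61. Serpinb3c (3.28 and 3.38) was exceeded by stomach, at 6.52, and 2810405F15Rik (3.59 and 3.95) was followed by bladder, at 2.01.

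Some striated muscle genes were higher in eyes than in the mean of the other tissues. Of 13 skeletal muscle genes with a symbol past the filter, 3 were called higher in eyes, beside 5.49% of all probes, and none lower, with a median log2 difference of 1.29. Myl1, a myosin light chain of fast fibres, read 3.34 and 3.25 in eyes. Bone averaged 4.39, skin 4.25, muscle 3.63 and heart 2.24, and the log2 difference of Myl1 was 2.04 (SE 0.35), 1.99 without eyes replicate 1 and 1.3 on Cy3 alone. Actn3, the alpha-actinin of fast fibres, read 1.52 and 1.36 in eyes, between 4.9 in muscle and -2.83 in heart. Tnni1, the slow skeletal troponin I, read 3.04 and 2.62 in eyes, and its log2 difference of 2.12 had an adjusted p of 0.00537 in limma. The difference was weaker without eyes replicate 1. Bone averaged 4.87, and large_intestine, at 3.91, exceeded muscle, at 3.2, whose arrays read 1.54 and 4.86. Brain_cortex and cerebellum also shared Tnni1, so it does not separate a muscle signal. On Cy3 alone Tnni1 was at 1.83 and Actn3 at 2.12.

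Muscle, heart, bone and skin were then left out of the comparison. Many genes of this list are high in those tissues, so leaving them out lowers the mean and raises the differences. The counts that follow are thus a description. Against the other 10 tissues 1110 probes (5.28%) were called higher in eyes, and 8 of the 13 muscle genes were among them, with a median log2 difference of 2.51 over the 13. Ankrd23, a muscle ankyrin-repeat protein, read 4.12 and 3.59 in eyes and 7.2 on average in bone. Cacna1s, the calcium channel of the transverse tubules, read 2.07 and 2.25, and Mettl21c, a methyltransferase of muscle, 2.45 and 2.55. Actn2, at 3.83 on both arrays, lay just outside the threshold of the comparison with all 14 tissues, with a log2 difference of 1.9. The muscle genes Chrnd, Asb18, Des and Jph1 had log2 differences between -0.69 and -0.14 from the mean of all 14 tissues. On Cy3 alone Des was at -2.28 (adjusted p = 5.72e-05 in limma) and Asb18 at 0.05. Within the scan day of the eyes, which leaves out muscle, bone, skin, stomach and the intestines, Des was at 0.53 (adjusted p = 0.000259 in limma), and against lung replicate 2 of the same slide Jph1 was at 0.27. In the sharing class of muscle, Tafa3, a secreted protein, read 3.91 and 4.26 in eyes and Col9a1, a chain of type IX collagen found in the vitreous, read 3.02 and 3.04. Both exceeded muscle, at 2.12 and 1.11, and no other array reached the eyes for either. Muscle shared them narrowly, since the eyes lay 1.96 and 1.92 above it. Col9a1 averaged 0.92 in brain_cortex and 0.93 in cerebellum, close to its value in muscle.

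**Figure D4:**
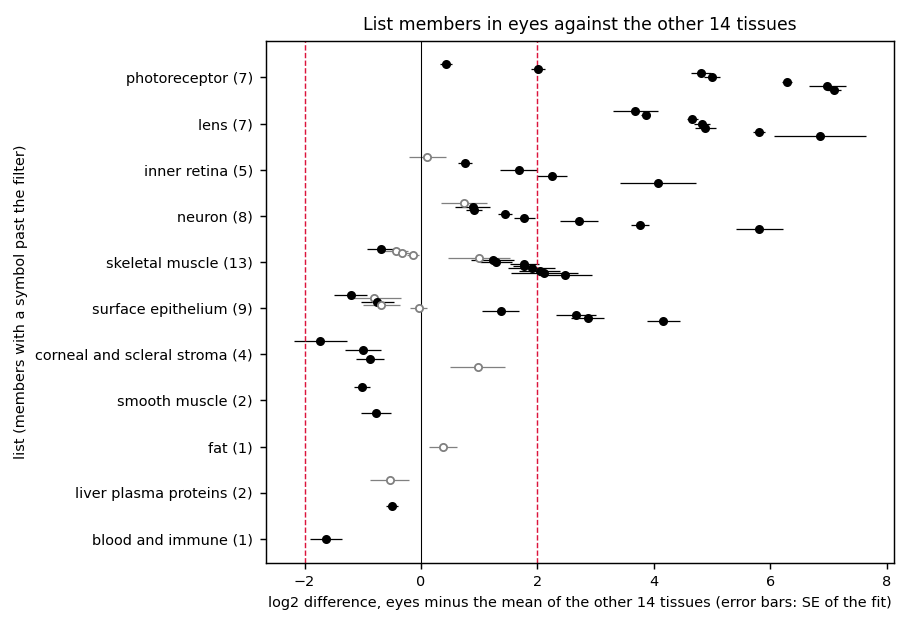
Log2 difference of eyes from the mean of the other 14 tissues (horizontal axis, linear, with the SE of the fit as error bars) for every list gene with a symbol past the filter, grouped by list. Filled points have an adjusted p under 0.05 and dashed lines mark -2 and 2. The photoreceptor and lens genes reach up to 7.09, the muscle and epithelium genes spread over both sides of 0, and the stroma, smooth muscle, fat, liver and blood genes all lie under 2.

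Few genes of other cell types that a dissected eye could carry had a symbol: 4 of 18 on the stroma list, 2 of 10 for smooth muscle, 1 of 12 for fat, 2 of 11 for liver plasma proteins and 1 of 16 for blood. None of them was called higher, beside 5.49% of all probes, and with so few measured nothing is read from that. Of the stroma list, Fmod, a small proteoglycan, had a log2 difference of 0.97 (adjusted p = 0.102 in limma). Prelp, Col5a2 and Col3a1, matrix genes of the same list, had log2 differences of -0.87, -0.99 and -1.73. The smooth muscle genes Lmod1 and Synpo2 had values of -0.78 and -1.01, the fat gene Fcor 0.37, the liver plasma genes Serpinc1 and Apoa2 -0.5 and -0.54, and Ptprc, the marker of blood cells, -1.63. No gene of the pigment epithelium and melanocyte list had a symbol among the probes tested, so that layer was not assessed.

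The 2 eyes arrays differed from each other along the same classes. Over all probes tested the log2 ratio of eyes replicate 1 minus that of replicate 2 had a median of -0.02, with quartiles of -0.17 and 0.14. In the brain class the median was -0.38, with quartiles of -0.53 and -0.21, and replicate 2 was higher for 224 of 244 probes. In the epithelium class the median was 0.4, with quartiles of 0.05 and 0.78, and replicate 1 was higher for 46 of 59 probes. The class eyes alone had a median of -0.14, with replicate 2 higher for 114 of 165 probes, and the muscle class had one of 0.06. The probes shared by mixed sets of tissues had a median of -0.21, with replicate 2 higher for 455 of 660. A lean to replicate 2 was thus not particular to the brain class. Among the lists the median was -0.46 for neuron genes, -0.29 for the inner retina, -0.12 for photoreceptors, 0.12 for the lens, 0.09 for skeletal muscle and 0.39 for the surface epithelium. Pkp1 (4.32 and 3.57), H60c (4.55 and 3.82) and Cysrt1 (4.96 and 4.15) were higher on replicate 1, whereas Amer2 (4.81 and 5.87) and Vat1l (4.38 and 4.89) were higher on replicate 2. Without eyes replicate 2, 205 probes fell into the brain class, and without eyes replicate 1, 290 did. With 1 array on each side these differences could not be tested.

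**Figure D5:**
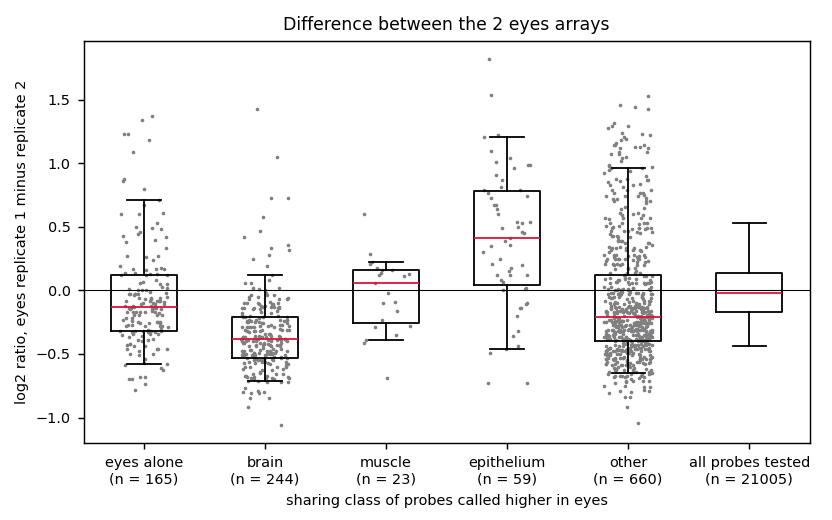
Log2 ratio of eyes replicate 1 minus that of replicate 2 (vertical axis) for the probes of each sharing class and for all probes tested. Boxes span the quartiles with the median in red, whiskers reach the 5th and 95th percentiles, and grey points are single probes. The brain class lies below 0 (median -0.38) and the epithelium class above it (median 0.4).

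Of the 179 probes called lower in eyes, 59 (33%) had their highest mean in liver, 29 (16.2%) in small_intestine and 27 (15.1%) in large_intestine. Of all probes tested, 11%, 6.4% and 6.03% had their highest mean in these 3 tissues. In 27 of the 179 both eyes arrays lay below every other array, and 3 of the 27 had a symbol. The share over all probes tested was not counted, so nothing is read from the 27. Cfap410, a protein of cilia, read -3.19 and -3.47 in eyes, and the other 28 arrays ran from -1.82 (fat replicate 1) through 0.47 to 3.44. Its log2 difference was -3.69 (SE 0.56, adjusted p = 2.7e-05 in limma). Ctse, the protease cathepsin E, read -1.45 and -1.4 in eyes and 3.31 on average in stomach, a log2 difference of -2.45 (SE 0.51). Gpat3, an enzyme of triglyceride synthesis, read -0.82 and -0.81 in eyes and 4.54 on average in small_intestine, a log2 difference of -2.04 (SE 0.32).

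Several enzymes and receptors of liver, kidney and heart were also called lower, though brain or another tissue was as low, and these 5 were chosen after their values were seen. Acsm3 and Acaa1b, enzymes of fatty acid metabolism, had log2 differences of -2.75 and -2.78 and were highest in kidney (7.7) and liver (5.64). Acads, a short-chain acyl-CoA dehydrogenase, had a log2 difference of -2.44. Agtr1a, an angiotensin receptor, had one of -2.2, with liver at 5.78. Fhl2, a LIM-domain protein of heart, had one of -2.88, with heart at 6.18 and eyes at -3.06 and -3.17.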

How the data were processed

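Total RNA was labelled with Cy3 by the authors and hybridised to 2-colour Agilent arrays against one Cy5 reference, with no dye exchange. Per the file headers, Feature Extraction 9.5.1.1 quantified the spots. The deposited files of each array hold mean signals and local backgrounds as intensity in scanner units, and other columns with flags and probe identities. The authors' value table holds 25030 probes on a log10 scale. Regressed on the scanner values, it rose with log10 Cy3 (slope 0.998) and fell with each array's departure of log10 Cy5 from the probe mean (slope -0.996), and so holds a Cy3 level adjusted for the reference. The log ratio column of the scanner files was not used.

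The mean signals were background-corrected by normexp (offset 50) over all spots, 475 outlier spots were removed and each array was loess-normalised with control spots at weight 0. Spots of 1 probe were averaged. Tests covered the probes of the value table that exceeded background clearly in Cy3 in both replicates of 1 tissue or more, 21019 probes (84%). A model with 1 coefficient per tissue over 30 arrays was fitted (limma 3.58.1, R 4.3.3, 15 residual degrees of freedom, so the spread is pooled over tissues). Tests were two-sided with Benjamini-Hochberg adjustment over all probes tested. Median signals of an array ran from 85.74 to 175.3 units in Cy3, and no spot was saturated. With arrays, their number limits the precision. Cy3 and Cy5 levels taken alone are log2 of the background-corrected signals, quantile-normalised between arrays. Without exchanged dyes all values are open to dye bias.

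Symbols came from the study's probe lists, used for names alone: 5622 probes of the table had one, 3480 as a current symbol and 1668 as a synonym in RefSeq's table (GRCm38.p6), the rest kept as listed. Named are the 8 genes with the largest log2 difference in each of the classes eyes alone, brain, muscle and epithelium, the 8 lowest genes with both eyes arrays below every other array, and the members of 12 lists (385 entries: photoreceptor, inner retina, pigment epithelium and melanocyte, lens, surface epithelium, stroma, skeletal and smooth muscle, neuron, fat, blood and immune, liver plasma proteins), 1 probe per gene. Fewer genes had a symbol in some classes. The arrays were grouped by their labels, but the choice of the eyes as the subject, the gene lists and the tests were made with earlier results of these data known, so the list counts are descriptions. Alternatives tried were other scalings and the value table, filters, batches, the replicate number as a block and leaving out arrays. The model was tested on simulated data.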

Additional observations from a re-analysis of the deposited data

Results flagged for a closer look

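Outside the authors' value table, 13616 further probes of the arrays passed the same filter, and 446 of them (3.28%) were called higher in eyes than in the other 14 tissues in a fit to all probes, with a log2 difference of up to 7.13. They were singled out because they lie in data that no comparison above uses. A symbol was known for 6 of the 446. Rimklb, a glutamate ligase, had the largest log2 difference of the 6 (3.59), and Plppr5 had one of 2.89. Groups of 2 arrays were too small for a test of single outlying arrays.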

How the results depend on the processing

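The counts depended on scaling and thresholds. With the scanner's processed signals 1862 probes were called higher and 710 lower, 2099, 1783 and 1916 were higher when brain, striated muscle or surface epithelium tissues were left out, the muscle class held 39 and the mixed class 1236, and 5 neuron and 7 skeletal muscle genes passed. With the value table these counts were 1738 higher, 591 lower, 1781 without epithelium tissues, 37 in the muscle class, 1156 in the mixed class, 5 neuron genes and 7 muscle genes. Median centring gave 937 higher, 935 of them among the 1153, 105 lower and 11 in the muscle class. Testing all noncontrol probes gave 36 in the muscle class. A threshold of 1 gave 2763 higher and 1461 lower, and 166 probes exceeded each other tissue by 2. Sharing within 1 left 311 probes in the class eyes alone and 367 in the mixed class, and sharing within 3 left 92 in eyes alone, 116 in brain, 36 in epithelium and 14 in muscle. A stricter filter on dim probes left 102 probes in eyes alone, 3 lens genes and 3 photoreceptor genes called, since fewer genes were tested. The cause of the other shifts was not tested.

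Slide and scan day as fixed blocks could not be fitted, because shared slides and days do not link the eyes to all 14 tissues. As random blocks they gave 1149 and 1186 probes higher. The random block for scan day, the comparison within 1 scan day and the one with brain_cortex, cerebellum and lung were chosen after seeing the data. Within the scan day of the eyes, which leaves 7 other tissues and none of muscle, bone, skin, stomach, intestine or fat, 1 inner retina gene and 8 skeletal muscle genes passed, and 3 genes turned to higher in eyes: Krt10 (0.22, adjusted p = 0.026), Des (0.53, adjusted p = 0.000259) and Serpinb2 (0.44, adjusted p = 0.00327), in limma. Against brain_cortex, cerebellum and lung 863 probes were higher and 324 lower with slide as a fixed block, and 857 and 220 without it. Against lung replicate 2 of the same slide Jph1 (0.27), Abca12 (0.11) and Sprr1a (0.47) had positive differences, untested. Leaving out 1 array at a time gave 1082 to 1219 probes higher, 166 to 190 lower, 1 to 2 inner retina genes (1 without eyes replicate 2) and 1 to 4 skeletal muscle genes (1 without eyes replicate 1). With the replicate number as a block 1153 probes were higher and 179 lower. Over 105 pairs of tissues the correlation of replicate deviations ran from -0.25 to 0.34, with a median of 0.05, and 33 exceeded 0.1. The main fit did not treat replicate numbers as pairs, and whether they stand for the same animals was not tested. With 2 arrays per tissue, the number of arrays limits the precision.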

Other observations

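Most other arrays stayed clear of the class eyes alone when taken singly. Of its 166 probes, fat replicate 1 and skin replicate 2 each lay within 2 of the eyes mean for 4, and every remaining array of another tissue for 2 or fewer. The 4 on fat replicate 1 included Crygc and Cryga. Slc1a2, the glial glutamate transporter, and Fam161a, a protein of photoreceptor cilia, were named after their values were seen. Slc1a2 read 6.32 and 6.42 in eyes and had a log2 difference of 4.46, with brain_cortex at 7.28, cerebellum at 7 and liver at 6.47. Fam161a read 3.8 and 4.06 in eyes and had one of 2.9, with bladder, its next tissue, at 2.51.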
